A study of Cicer arietinum with 12 samples.

Results

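The drought response of the chickpea (Cicer arietinum) genotype ICC8261 was described from 6 of the 12 leaf RNA libraries of the study, 3 drought-stressed and 3 well-watered. The members were chosen by the column names of the authors' deposited DESeq2 table for this genotype. In it 3 columns are marked S, for sample, and 3 are marked C, for control. These were taken as drought and well-watered. Well-watered pots were held at 80% and drought-stressed pots at 20% of the soil's field capacity, which is the water a soil keeps after it has drained. The labels describe ICC8261 as tolerant of drought. The comparison genotype ICC283, with 3 drought and 3 well-watered libraries, is described as sensitive. No transgene, mutation or chemical agent is named for any group. Plants stood in a glasshouse at 23 to 28 degrees Celsius, the RNA came from leaves, and the stage is given as shoot apical meristem. No source used here gives plant age, the length of the drought or the hour of harvest. Whether each library came from its own pot is not stated either, and p-values therefore reflect library-to-library spread, which may be technical in part.

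Leaf cells that lose water raise the hormone abscisic acid, which acts through bZIP and other transcription factors on genes whose products protect dehydrating cells. Among these products are dehydrins and other late embryogenesis abundant (LEA) proteins, which are very hydrophilic and are thought to protect membranes and proteins, and enzymes that make compatible solutes such as proline and galactinol-derived sugars. NAC, homeodomain-leucine zipper and heat stress factors are further families of transcription factors with drought-responsive members, and expansins and other wall proteins serve the growth that drought slows.

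The treatment of 4 of the 12 libraries differed between the deposited sources. For ICC8261, the column of well-watered library 1 held the reads of a count file that is filed as drought, and the column of drought library 2 held those of a count file filed as well-watered. In ICC283 the same held for well-watered library 3 and drought library 3. The other 4 ICC8261 libraries, well-watered 2 and 3 and drought 1 and 3, had the same treatment in both sources and are called the libraries of agreed treatment (n = 2 per group). No source used here says which labelling is right. All values below follow the table columns unless another labelling is named, and each named call that ends in the libraries of agreed treatment is given with its value there. With the labels of the count files, 0 genes (0.0% of those tested) passed edgeR's quasi-likelihood test for drought in ICC8261, and 384 had an unadjusted p under 0.05. DESeq2 called 1 gene there, with 478 at an unadjusted p under 0.05.

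The 6 libraries held 10027015 to 11328707 reads in genes and reads of 21019 to 22104 genes. Plastid transcripts of the photosynthetic cytochrome complex were abundant in every library (petD, at least 9870 reads per 1000000). Other markers of photosynthetic leaf cells fixed for this check (rbcS, rbcL, psbA, psaA and chlorophyll-binding symbols) could not be matched by symbol, nor could markers of other cell types. Alignments that were not unique made up 49.27% to 52.82% in the drought libraries and 44.06% to 50.01% in the well-watered ones, where the highest value was that of library 1. The unnamed gene LOC101500093 took 12.28% to 13.8% of the reads under drought and 6.34% to 7.652% in well-watered leaves. The part of these shares in the results was not tested. In a principal component analysis of 17482 genes, PC1 held 71.3% of the variance and separated the table groups. The well-watered libraries lay at -38.4, -47.9 and -37.2 on PC1, drought libraries 1 and 2 at 51.4 and 54.0, and drought library 3 at 18, nearest to the well-watered group.

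**Figure D1:**
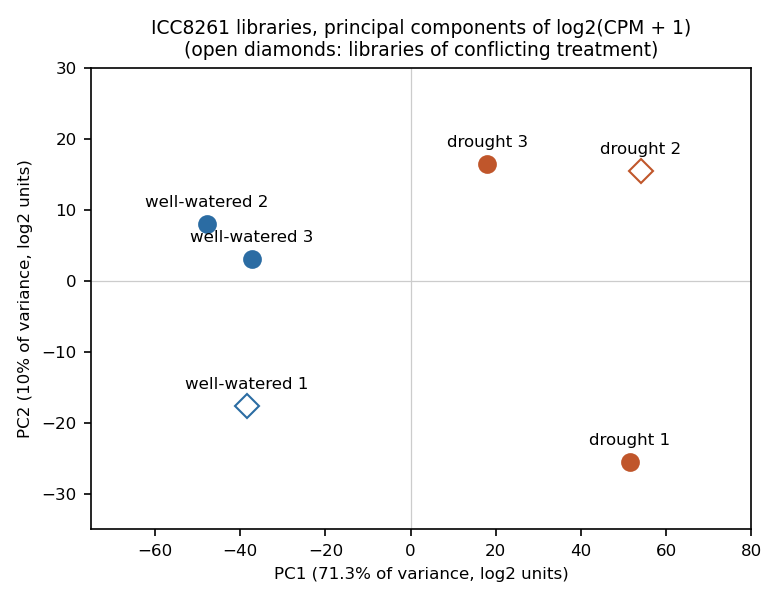
Principal components of log2(CPM + 1) in the 6 ICC8261 libraries, with PC1 (71.3% of the variance) on the x axis and PC2 (10%) on the y axis. Blue marks well-watered and orange drought libraries by the table columns, and open diamonds mark the libraries whose count file carries the other treatment; drought library 3 lies closest to the well-watered libraries.

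Of 18591 genes tested in ICC8261, 1828 were higher under drought (9.83%) and 1640 were lower (8.82%) at an adjusted p under 0.05 in edgeR's quasi-likelihood test with Benjamini-Hochberg adjustment. Values are given below for each library as CPM, reads per 1000000 reads in genes after TMM scaling, and changes as log2 fold change of drought over well-watered ± SE. Changes of at least 4-fold were seen in 219 of the genes called higher and 207 of those called lower, and of at least 16-fold in 29 and 12. The 3 drought libraries did not overlap with the 3 well-watered libraries in 1809 of the genes called higher and 1629 of those called lower. Over all 18591 genes tested, called or not, the drought libraries lay wholly above the well-watered ones in 4090 (22%) and wholly below in 4286 (23.1%). Lack of overlap was also a condition for naming the genes of largest rise and fall, so for these it is no separate result. Drought library 3 was the drought library nearest to the well-watered group in 61.4% of the genes called higher and 66.1% of those called lower. The median log2 fold change over all genes was -0.005. In bulk leaf RNA, fewer cells of a kind and less RNA per cell cannot be told apart.

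In the libraries of agreed treatment 1704 of 18749 genes were higher (9.09%) and 1194 were lower (6.37%). Of the genes called in all 6 libraries, 1341 were also called higher there (73.4%) and 952 lower (58.0%), and 0 were called in the opposite direction. The libraries of agreed treatment are among the 6, so the shared direction is no separate result. The number of calls also changed when single ICC8261 libraries were left out, which makes a group smaller as well. The cause of these changes was not tested. For drought calls in ICC8261, each library in turn means each of the 6 ICC8261 libraries, with all ICC283 libraries kept in the fit. The number of genes called higher was 824 without well-watered library 2, 1195 without well-watered library 3, 1071 without drought library 1 and 1027 without drought library 2. For genes called lower the number was 925 when well-watered library 1 was left out, 686 for well-watered library 2, 970 for well-watered library 3, 642 for drought library 1 and 603 for drought library 2. Without drought library 3 the counts were 1732 and 1856. The authors' deposited DESeq2 table gave 2248 genes as higher and 2490 as lower at an adjusted p under 0.05, and 1721 of the 1828 and 1557 of the 1640 were among them with the same sign.

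Dehydrin and LEA genes had the largest rises among genes with a symbol. The list of dehydrin, LEA and osmolyte genes had 5 tested members, of which 3 were called higher and 0 lower (median 4.23), beside 9.83% and 8.82% of all genes. CAGOLS2 had too few reads to be tested. In the libraries of agreed treatment the list also had 5 tested members, 3 called higher and 0 lower. DHN, a dehydrin, stood at 7.13, 4.46 and 11.8 CPM in well-watered libraries 1 to 3 and at 300, 328 and 189 CPM in drought libraries 1 to 3. All drought libraries lay far above all well-watered ones, with drought library 3 the lowest of its group. DHN rose by 5.12 ± 0.70 (adjusted p = 0.00094), and by 4.92 ± 0.47 in the libraries of agreed treatment. With the count-file labels its value was 0.52 (adjusted p = 1.0).

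CAPLEA-1, an LEA gene, was almost silent in well-watered leaves, at 0.366, 0.0 and 0.395 CPM, which were 4, 0 and 5 reads. It reached 23.9, 43.9 and 11.9 CPM under drought, a rise of 6.69 ± 0.66 (adjusted p = 9.8e-05). The groups were well apart, and the size of the rise is imprecise because of the few well-watered reads. CapLEA-2, a further LEA gene, went from 0.183, 0.378 and 0.553 CPM to 8.24, 8.25 and 5.4 CPM (4.23 ± 0.46, adjusted p = 0.00012). It too showed no overlap, at a low level throughout. The calls of DHN, CAPLEA-1 and CapLEA-2 were kept without each library in turn.

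The osmolyte enzymes of that list were not called. P5CS, which makes the precursor of proline, had 1.92, 10.7 and 11.1 CPM in well-watered and 14.4, 36.5 and 27.0 CPM in drought libraries (1.70 ± 0.59, adjusted p = 0.067). The groups did not overlap, but well-watered library 1 lay well below the other two, and in the libraries of agreed treatment the value was 0.94 (adjusted p = 0.26). CAGOLS1, a galactinol synthase, which starts the making of raffinose sugars, had 3.66, 3.63 and 4.74 CPM against 4.12, 2.83 and 3.57 CPM. Its groups overlapped (-0.20 ± 0.26, adjusted p = 0.63).

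**Figure D2:**
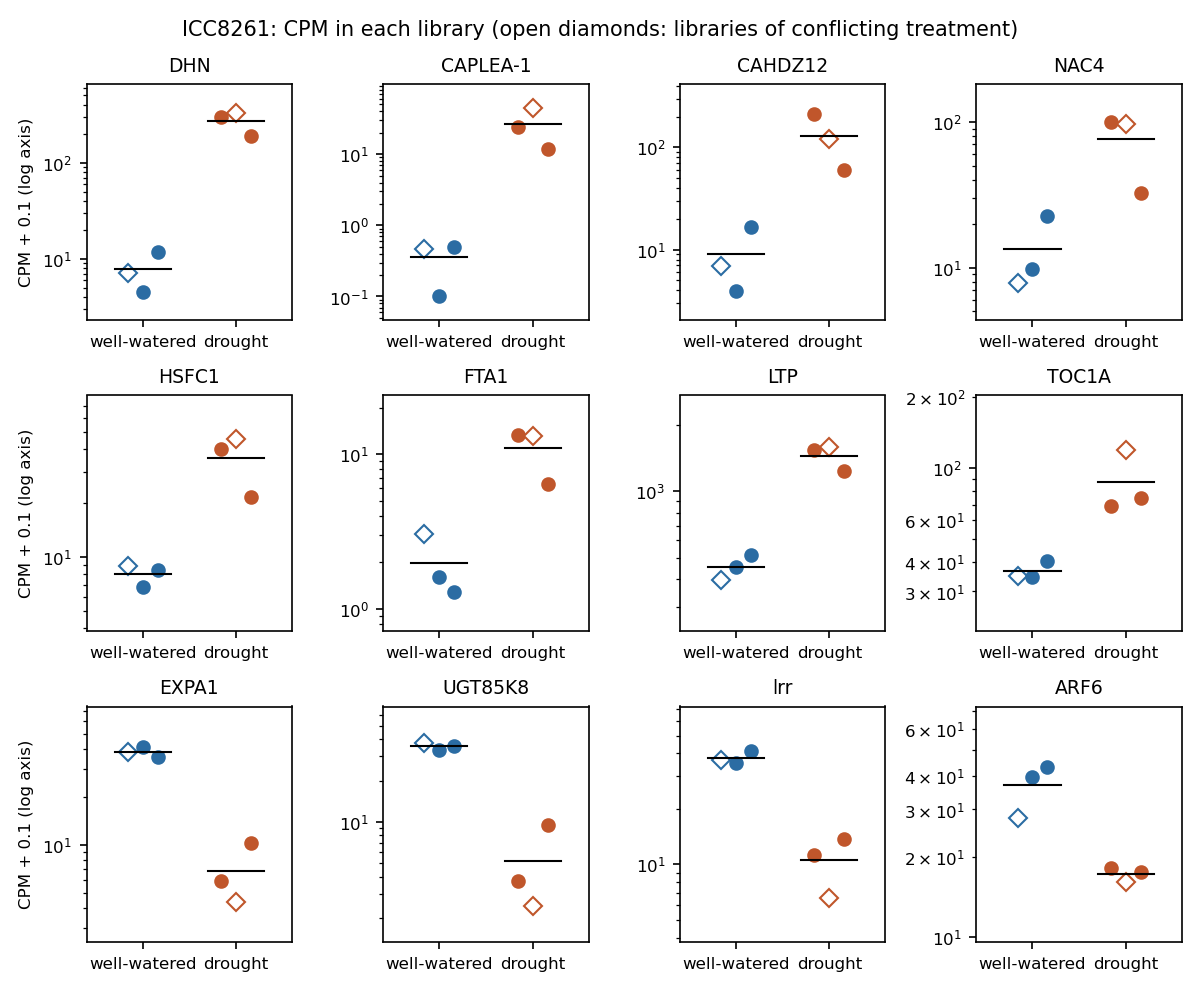
CPM plus 0.1 on a log axis in each ICC8261 library for 12 named genes, with the mean of each group as a line. Blue marks well-watered and orange drought libraries, and open diamonds mark the libraries of conflicting treatment. The groups do not overlap in any of the 12 panels, which was a condition for naming these genes, apart from LTP and TOC1A. DHN stands at 4.46 to 11.8 against 189 to 328 CPM.

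The homeodomain-leucine zipper gene CAHDZ12, a transcription factor of a plant-specific class, rose the most among regulators with a symbol. It stood at 6.77, 3.86 and 16.5 CPM in well-watered and at 211, 121 and 59.6 CPM in drought libraries. No library crossed over, although the drought libraries differed among themselves by more than 3-fold. The rise was 3.85 ± 0.53 (adjusted p = 0.00099), and 3.74 ± 0.86 in the libraries of agreed treatment (adjusted p = 0.044). When ICC283 was also left out of that fit, a setting added after seeing the data, it was 3.75 and not called (adjusted p = 0.066).

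NAC factors, a large plant family of transcription factors, had 50 tested members. Of these 5 were called higher, 1 lower, and 44 were not called (median 0.06, against -0.005 over all genes). Over all genes 9.83% were called higher and 8.82% lower. NAC4 stood at 7.77, 9.68 and 22.5 CPM and rose to 99.4, 96.6 and 32.4 CPM (2.51 ± 0.48, adjusted p = 0.0055). Its closest libraries were well-watered 3 and drought 3, and in the libraries of agreed treatment it was no longer called (2.04 ± 0.60, adjusted p = 0.073). NAC11 went from 3.2, 4.01 and 3.95 CPM to 18.2, 17.3 and 10.7 CPM, a rise of 2.04 ± 0.31 (adjusted p = 0.0011). NAC05 rose by 2.04 ± 0.28, from 5.49, 4.69 and 4.42 CPM to 23.8, 22.3 and 13.8 CPM. In both genes the well-watered libraries were tightly grouped and drought library 3 was the lowest drought library.

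NAC5 was at 40.0, 36.5 and 40.0 CPM in well-watered leaves and at 138, 138 and 73.2 CPM under drought (1.58 ± 0.23, adjusted p = 0.00091). The fifth NAC called higher, NAC52, is outside the rule for named genes and is given to complete the count (1.65 ± 0.37, adjusted p = 0.011; 1.42 and adjusted p = 0.13 in the libraries of agreed treatment). NAC66 was the member that fell, from 1.83, 1.82 and 1.5 CPM to 0.211, 0.0834 and 0.457 CPM (-2.73 ± 0.62, adjusted p = 0.0099). Its drought values rest on 2, 1 and 5 reads, and without drought library 2 it was not called (adjusted p = 0.054). It was called in the libraries of agreed treatment (-2.24, adjusted p = 0.036) but not with ICC283 left out as well (-2.23, adjusted p = 0.051).

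Heat stress factors, which bind heat shock elements, had 2 of 19 tested members called higher and 0 lower, with a median of 0.18, where 9.83% of all genes were called higher and 8.82% lower. HSFC1 went from 8.78, 6.66 and 8.37 CPM to 39.8, 45.3 and 21.5 CPM, a rise of 2.16 ± 0.30 (adjusted p = 0.00075). All drought libraries exceeded all well-watered ones by at least 2-fold. HSFA4C was scarce, at 0.731, 0.756 and 0.474 CPM against 2.64, 3.0 and 1.1 CPM (1.77 ± 0.43, adjusted p = 0.014). Its call ended without well-watered library 3, drought library 1 or drought library 2 (adjusted p up to 0.07) and in the libraries of agreed treatment (1.57, adjusted p = 0.065).

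Of 5 ERF, DREB and bZIP factors, families that act in abscisic acid and dehydration responses, 1 was called higher, where 9.83% of all genes were. BZIP went from 134, 103 and 103 CPM to 252, 207 and 209 CPM (0.97 ± 0.22, adjusted p = 0.0099), with no overlap. It was not called without well-watered library 2 (adjusted p = 0.052). Of 2 WRKY factors, 5 calcium signalling genes and 5 genes in the list of MAP kinase kinases and calcium-calmodulin kinase kinases, 0 were called in either direction. Among 14 MAP kinases, enzymes of phosphorylation cascades, 2 were called higher and 0 lower, beside 9.83% and 8.82% of all genes. MAPK7 rose by 0.70 ± 0.13 (adjusted p = 0.0028) from 23.5, 23.6 and 27.6 CPM to 40.2, 41.3 and 40.0 CPM. Its drought libraries nearly coincided. CAMAPK5 had a change of 0.43 ± 0.13 (adjusted p = 0.033) that was called neither in the libraries of agreed treatment (0.29, adjusted p = 0.14) nor without any library other than drought 3 (adjusted p up to 0.15).

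In the list of hormone genes 2 of 3 tested were called higher, where 9.83% of all genes were. HP3 rose by 2.43 ± 0.24 (adjusted p = 6.6e-05). It was at 30.9, 23.4 and 40.9 CPM in well-watered and at 194, 172 and 147 CPM in drought libraries. The groups were far apart and its call was kept without each library in turn and in the libraries of agreed treatment (2.41 ± 0.37). The files give HP3 as a name only, and its role was not annotated in the table of names used. ACS, a symbol of the enzyme that makes the ethylene precursor, was at 30.4, 47.6 and 59.5 CPM against 72.5, 80.0 and 72.3 CPM (0.71 ± 0.22, adjusted p = 0.041). The drought values were tight and the well-watered ones were not. The call of ACS ended without any library other than well-watered 3 (adjusted p up to 0.13) and in the libraries of agreed treatment (0.44, adjusted p = 0.083).

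Auxin response factors, which bind the promoters of auxin-regulated genes, had 4 members called lower and 2 higher of 20 tested, with a median of -0.13. Over all genes 8.82% were called lower and 9.83% higher. ARF6 fell from 27.7, 39.7 and 43.1 CPM to 18, 16 and 17.4 CPM (-1.11 ± 0.18, adjusted p = 0.0017). ARF4 fell from 18.6, 17.4 and 18.9 CPM to 8.87, 7.67 and 11.3 CPM (-0.98 ± 0.17, adjusted p = 0.0023). For both the groups were apart and the calls were kept without each library in turn. ARF12 (-1.28 ± 0.35, adjusted p = 0.027) and ARF13 (-0.93 ± 0.21, adjusted p = 0.011) also fell. ARF12 was not called without well-watered library 2 or 3 or drought library 1 or 2 (adjusted p up to 0.12), nor ARF13 without drought library 1 (adjusted p = 0.059). All 4 were called lower in the libraries of agreed treatment. The members called higher, ARF23 (0.68 ± 0.19, adjusted p = 0.027) and ARF1 (0.49 ± 0.16, adjusted p = 0.047), were not called there (0.63 and 0.30, adjusted p = 0.072 and 0.23). ARF23 was called without well-watered library 3 and not without any other library (adjusted p up to 0.11), and ARF1 without well-watered library 3 or drought library 3 and not without any other (adjusted p up to 0.17).

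Of 11 tested clock genes, 4 were called higher and 1 lower (median 0.49), beside 9.83% and 8.82% of all genes. In the libraries of agreed treatment 4 and 2 were called, beside 9.09% and 6.37% of all genes. TOC1A, whose Arabidopsis counterpart peaks in the evening, was at 34.7, 34.5 and 40.4 CPM against 68.7, 119 and 74.2 CPM, with drought library 2 the highest. It rose by 1.26 ± 0.27 (adjusted p = 0.0085), and by 0.94 in the libraries of agreed treatment. The pseudo-response regulator PRR37B rose from 67.7, 66.3 and 76.4 CPM to 110, 139 and 105 CPM (0.75 ± 0.14, adjusted p = 0.003). No library crossed over in either gene. PRR59A rose by 0.94 ± 0.29 (adjusted p = 0.042), a call lost without each library in turn (adjusted p up to 0.14) but kept in the libraries of agreed treatment (0.81, adjusted p = 0.011). Those fits share their spread with ICC283. In a fit of the 6 ICC8261 libraries alone PRR59A was called (0.95, adjusted p = 0.00054). ELF3A, outside the rule for named genes, had 0.49 (adjusted p = 0.046), and 0.37 (adjusted p = 0.1) in the libraries of agreed treatment.

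LHY, whose Arabidopsis counterpart peaks in the morning, fell from 71.4, 90.8 and 85.7 CPM to 54.6, 48.1 and 32.9 CPM (-0.87 ± 0.22, adjusted p = 0.017). The groups did not overlap. The call of LHY ended without well-watered library 2 or 3 or drought library 2 (adjusted p up to 0.071) and was kept in the libraries of agreed treatment (-1.01, adjusted p = 0.011). Since clock transcripts change over the day and the hour of harvest is not given, the part of sampling time in these values was not tested. Of 5 flowering regulators 1 was called higher and 0 lower, beside 9.83% and 8.82% of all genes. FTA1, a gene of the FLOWERING LOCUS T family of mobile flowering signals, was at 2.93, 1.51 and 1.18 CPM and rose to 13.2, 12.9 and 6.31 CPM (2.54 ± 0.38, adjusted p = 0.0012). All drought libraries exceeded all well-watered ones, and the call was kept without each library in turn.

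UDP-glycosyltransferases, which attach sugars to small molecules, had 3 members called higher and 4 lower of 48 tested, with a median of 0.14, beside 9.83% and 8.82% of all genes. UGT85X1 went from 6.95, 6.81 and 7.9 CPM to 28.9, 23.6 and 23.8 CPM (1.81 ± 0.15, adjusted p = 3.1e-05). UGT85K8 moved the other way, from 37.7, 33.4 and 35.7 CPM to 3.59, 2.33 and 9.33 CPM (-2.80 ± 0.43, adjusted p = 0.0015). Replicates were close in both genes, apart from drought library 3 of UGT85K8. UGT85H6 rose by 0.89 ± 0.19 and UGT85H3 fell by 1.22 on the log2 scale, both kept without each library in turn. UGT74K2 (0.63 ± 0.16, adjusted p = 0.017) was not called without well-watered library 2 or 3 or drought library 1 or 2 (adjusted p up to 0.085). UGT88E8 (-1.02 ± 0.24, adjusted p = 0.013) was not called without well-watered library 1 (adjusted p = 0.059) or in the libraries of agreed treatment (-0.88, adjusted p = 0.05, not below the threshold). UGT73P7 (-1.77 ± 0.57, adjusted p = 0.045) was lost without each library in turn (adjusted p up to 0.17) and in the libraries of agreed treatment (-1.39, adjusted p = 0.12). Reads that align to several near-identical family members were set aside as not unique, so levels within this family are uncertain.

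**Figure D3:**
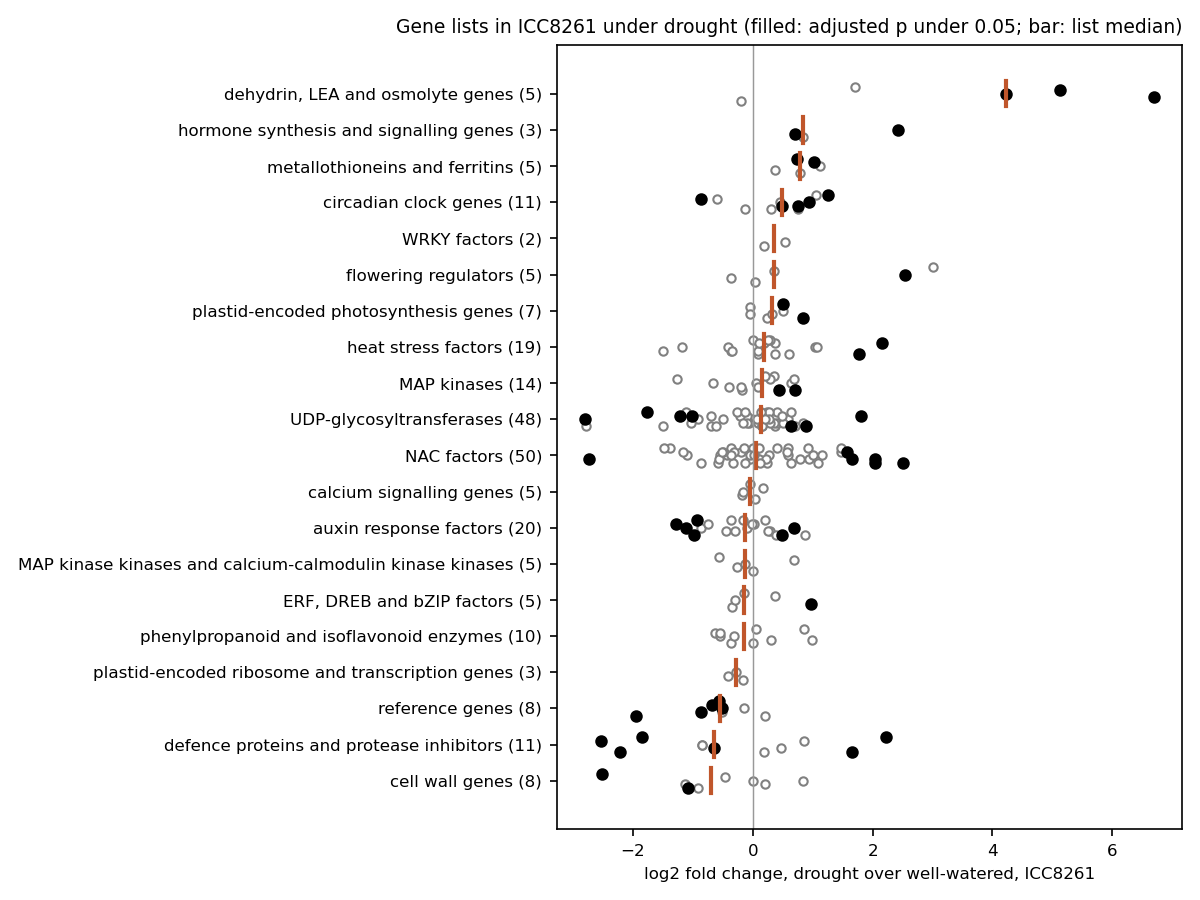
Log2 fold change of drought over well-watered in ICC8261 for every tested member of 20 gene lists, with the number tested in brackets. Filled points have an adjusted p under 0.05 and orange bars are list medians; the dehydrin, LEA and osmolyte list has a median of 4.23, and most other lists straddle 0.

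Of 8 tested cell wall genes 2 were called lower and 0 higher (median -0.69), beside 8.82% and 9.83% of all genes. In the libraries of agreed treatment 1 more, CA-EXPA3, was called higher (0.96, adjusted p = 0.019). EXPA1, an expansin that loosens the walls of growing cells, fell from 38.5, 41.4 and 35.5 CPM to 5.81, 4.25 and 10.1 CPM (-2.52 ± 0.55, adjusted p = 0.01). Its groups lay far apart and its call was kept without each library in turn. Bglc-2 fell from 143, 116 and 144 CPM to 40.0, 86.3 and 62.5 CPM (-1.09 ± 0.30, adjusted p = 0.026), with a wide spread under drought. Its call was kept in the libraries of agreed treatment and without drought library 2, but ended without any other library (adjusted p up to 0.1).

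Of 8 tested genes often used as references for expression, 5 were called lower and 0 higher (median -0.54), beside 8.82% and 9.83% of all genes. The actin gene listed as ACTIN went from 99.6, 121 and 97.8 CPM to 22.8, 16.5 and 43.3 CPM (-1.95 ± 0.46, adjusted p = 0.014), and the separate gene listed as actin from 944, 881 and 791 CPM to 615, 600 and 624 CPM (-0.51 ± 0.13, adjusted p = 0.018). IF4A, a translation initiation factor, fell from 164, 171 and 155 CPM to 92.7, 98.8 and 115 CPM (-0.68 ± 0.12, adjusted p = 0.0033). In all 3 genes the groups did not overlap. ACTIN was not called without drought library 1 or 2 (adjusted p = 0.062) or in the libraries of agreed treatment (-1.71, adjusted p = 0.069), and actin not without well-watered library 1 or 2 or drought library 1 or 2 (adjusted p up to 0.067). EF1A (-0.86, adjusted p = 0.048) and TUBB (-0.56, adjusted p = 0.028), outside the rule for named genes, complete the count. GAPDH (-0.15), UBQ5 (-0.52) and UBQ10 (0.20) were not called. HIS2A, a histone symbol, fell from 52.7, 76.5 and 59.2 CPM to 17.3, 14.1 and 44.8 CPM (-1.30 ± 0.42, adjusted p = 0.049), a call that ended in the libraries of agreed treatment (-1.11, adjusted p = 0.12) and without any library other than drought 3 (adjusted p up to 0.16).

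Of 11 tested defence genes and protease inhibitors, 2 were called higher and 4 lower, beside 9.83% and 8.82% of all genes. The lipid transfer proteins, which carry lipids outside the cell, went both ways. LTP rose from 399, 457 and 515 CPM to 1530, 1580 and 1230 CPM (1.66 ± 0.39, adjusted p = 0.013), and LTP2 fell from 93.2, 95.2 and 98.3 CPM to 58.6, 57.6 and 65.9 CPM (-0.65 ± 0.13, adjusted p = 0.0057). Neither gene showed overlap, and LTP was not called without well-watered library 2 (adjusted p = 0.053). With the ICC8261 libraries fitted alone, LTP was called (1.67, adjusted p = 8.1e-05). The gene named lrr, for a leucine-rich repeat protein, fell from 36.9, 35.2 and 40.9 CPM to 11.1, 6.5 and 13.7 CPM (-1.85 ± 0.46, adjusted p = 0.018). Its call ended without well-watered library 3 or drought library 1 or 2 (adjusted p up to 0.081).

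The genes of the glycine-rich protein symbols moved in opposite directions. GRP2 was at 7.13, 5.6 and 6.32 CPM against 28.2, 49.3 and 11.7 CPM (2.23 ± 0.69, adjusted p = 0.044). Its drought libraries were spread over more than 4-fold, and the call ended without any library other than drought 3 (adjusted p up to 0.17). GRP1 was scarce, at 1.83, 1.36 and 2.29 CPM against 0.106, 0.5 and 0.274 CPM (-2.54 ± 0.54, adjusted p = 0.007), and its call was kept without each library in turn. AFP-CA, outside the rule for named genes, was also called lower (-2.21, adjusted p = 0.03), though not in the libraries of agreed treatment (-1.97, adjusted p = 0.14). F-BOX1, whose symbol names the substrate-binding subunit of a ubiquitin ligase, rose from 3.2, 2.87 and 2.92 CPM to 15.5, 12.2 and 9.33 CPM (2.04 ± 0.22, adjusted p = 0.00013).

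Metallothioneins, small metal-binding proteins, rose while ferritins, which store iron, were not called in all 6 libraries. MT-1 was at 991, 584 and 745 CPM against 1680, 1190 and 1850 CPM (1.02 ± 0.21, adjusted p = 0.0067), and MT-2 at 199, 152 and 162 CPM against 284, 290 and 284 CPM (0.74 ± 0.17, adjusted p = 0.0095). Both showed no overlap; MT-2 was not called without well-watered library 2 (adjusted p = 0.053). FER1, FER2 and FER3 had log2 fold changes of 0.78, 0.37 and 1.12 with wide spread, and FER1 was called in the libraries of agreed treatment (1.10, adjusted p = 0.037).

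The list of plastid-encoded photosynthesis genes also held clpP, which encodes a protease subunit. Of its 7 tested members 2 were called higher and 0 lower, beside 9.83% and 8.82% of all genes. The median of 0.32 was the value of clpP. The 2 called genes encode subunits of the cytochrome b6f complex, which passes electrons between the photosystems. petD stood at 11100, 9870 and 9930 CPM in well-watered and at 20600, 17800 and 16800 CPM in drought libraries (0.84 ± 0.14, adjusted p = 0.0023). petB rose from 11100, 10400 and 10500 CPM to 17500, 15900 and 12300 CPM (0.51 ± 0.16, adjusted p = 0.04). The groups were apart in both, but petB was not called in the libraries of agreed treatment (0.52, adjusted p = 0.072) or without any library other than drought 3 (adjusted p up to 0.14). None of the 3 plastid genes for ribosomal proteins and the RNA polymerase was called (median -0.28), nor any of 10 phenylpropanoid and isoflavonoid enzymes (median -0.15). How plastid transcripts entered these libraries depends on the RNA selection, which no source used here states.

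Among the named genes, the largest rise and the largest falls lay in genes with only a locus identifier, for which no name or role was given. CAPLEA-1 (6.69) rose by more than any of these except LOC101513086. LOC101513086 was at 0.274, 0.0756 and 0.869 CPM and rose to 67.8, 61.2 and 20.5 CPM (6.89 ± 0.63, adjusted p = 6.5e-05). LOC101508200 rose from 0.457, 0.454 and 0.395 CPM to 49.5, 40.3 and 20.8 CPM, by 6.37 ± 0.40 (adjusted p = 9.4e-06). LOC101510690 rose from 0.64, 0.378 and 0.869 CPM to 52.5, 45.8 and 24.1 CPM, by 6.0 ± 0.39. No well-watered library held more than 11 reads of any of these genes, and drought library 3 was the lowest drought library in all of them. LOC101500742 went from 1.55, 1.74 and 7.34 CPM to 157, 262 and 130 CPM (5.68 ± 0.55), and LOC101497005 from 0.0914, 0.0 and 0.395 CPM to 9.4, 15.3 and 10.7 CPM (6.08 ± 0.56). LOC101500770 had 1 read in the well-watered libraries and 96 under drought, a ratio of 109 per depth (95% exact binomial interval 19.1 to 4360, counting error only). The calls of these 6 genes were kept without each library in turn and in the libraries of agreed treatment.

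Falls among such genes rested on few reads. LOC101504245 had 0 reads in all 3 drought libraries and 0.0914, 8.55 and 7.19 CPM in the well-watered ones, at least 57.0-fold lower against a floor of 3 reads over the drought group. Well-watered library 1, with 1 read, lay close to the drought group, and the call ended without well-watered library 2 or drought library 1 or 2 (adjusted p up to 0.06). LOC101489976 fell from 13.2, 12 and 7.82 CPM to 0.106, 0.5 and 0.823 CPM (-4.46 ± 0.68, adjusted p = 0.0022), with no overlap. LOC101510786 went from 1.37, 8.85 and 8.21 CPM to 0.0, 0.0834 and 0.64 CPM (-4.59 ± 1.15, adjusted p = 0.023), and was not called without well-watered library 2 or 3 or drought library 1 or 2 (adjusted p up to 0.095) or in the libraries of agreed treatment (-4.60, adjusted p = 0.07). LOC101501683 had 78 well-watered reads and 1 drought read, 68.6 times fewer per depth (95% interval 12 to 2740). LOC101500574 and LOC101494416 each had 3 drought reads against 97 and 84 well-watered reads, ratios of 28.4 (9.45 to 140) and 24.6 (8.14 to 122).

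By the profile over the 6 libraries, the symbols most like DHN were HP3, CapLEA-2 and MAPK7, with Pearson correlations of log2(CPM + 1) of 0.998, 0.991 and 0.991. The 6 points share the group difference, so these values describe likeness of level between groups and libraries and carry no test. Some called genes lay next to each other in the order of the Cicar.CDCFrontier_v2.0 assembly. There were 30 runs of at least 3 neighbouring tested genes called higher and 16 called lower among 17989 placed genes. With 9.83% and 8.82% of all genes called, some runs arise even if calls are placed at random. The number so expected was not computed, so whether there were more runs than that was not tested. In the longest run of rises, LOC101502083, LOC101502613, LOC101503260, LOC101503578 and LOC101504122 had log2 fold changes of 0.53, 1.11, 1.38, 2.14 and 2.35. In the longest run of falls, LOC101499922, LOC101499196, LOC101498875, LOC101498534 and LOC101498205 had -0.52, -1.27, -1.72, -1.66 and -1.44. Neighbouring members of a gene family can share reads, and no source used here gives the strand setting of the counting, so overlapping genes within a run cannot be told apart.

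Called genes of the gene classes were counted too. Of 17461 protein-coding genes 9.92% were higher and 9.19% lower. Of 339 long non-coding RNA genes 25 were higher (7.37%) and 10 lower (2.95%), with a median of 0.28. Their median level was 2.66 CPM against 12.1 CPM for protein-coding genes. The difference in shares between classes was not tested.

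ICC283 gave more calls than ICC8261. In the same fit 3087 genes were higher (16.6%) and 3744 lower (20.1%) under drought in ICC283. Of the genes called in ICC8261, 1082 of the 1828 higher genes (59.2%, and 35.1% of the ICC283 list) and 1202 of the 1640 lower genes (73.3% and 32.1%) were called in the same direction in ICC283, while 29 and 18 were called in the opposite direction. Since a count of calls does not test whether effects differ, the difference of the drought effects, ICC8261 minus ICC283, was tested for each gene. It was positive in 297 genes (1.6%) and negative in 182 (0.979%). Among the genes called higher in ICC8261, 78 had a positive and 5 a negative difference, and among those called lower 51 had a positive and 33 a negative one.

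That count, 479 in all, moved by over 1.5 times with the loss of any library. Among the ICC8261 libraries it became 223 with well-watered 1 left out, 65 with well-watered 2, 85 with well-watered 3, 79 with drought 1, 192 with drought 2 and 274 with drought 3. Among the ICC283 libraries it became 277 with well-watered 1 left out, 57 with well-watered 2, 2298 with well-watered 3, 55 with drought 1, 112 with drought 2 and 918 with drought 3. The ICC283 libraries well-watered 3 and drought 3 are those whose count files carry the other treatment. The libraries of agreed treatment gave 2354.

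For most of the strongest genes the difference was not called. DHN changed by 5.12 ± 0.70 in ICC8261 and 5.02 ± 0.69 in ICC283, a difference of 0.10 (adjusted p = 0.96). CAPLEA-1 differed by -0.08 and CAHDZ12 by 0.30 ± 0.69, and neither was called. No SE is given for the differences of DHN and CAPLEA-1, since the SE used here is unreliable for differences so near 0. FTA1 reached 13.2, 12.9 and 6.31 CPM under drought in ICC8261 and 68.8, 70.2 and 37.4 CPM in ICC283, with a difference of the log2 fold changes of -1.40 ± 0.53 (adjusted p = 0.16). The gene lrr had -1.85 in ICC8261 and -5.03 in ICC283, a difference of 3.17 ± 0.77 (adjusted p = 0.053).

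Of the named genes, 6 passed the test of the difference, beside 1.6% positive and 0.979% negative over all genes. Passing it was a ground for naming all of these but NAC5, so the number 6 was largely set by the selection. ACS had the opposite directions in the genotypes: in ICC283 it was at 78.5, 101 and 69.9 CPM in well-watered and at 38.6, 35.1 and 27.0 CPM in drought libraries (-1.3 ± 0.22). The difference was 2.01 ± 0.32 (adjusted p = 0.013). UGT73C15 was at 20.7, 23.3 and 25.7 CPM against 32.3, 27.1 and 31.0 CPM in ICC8261 (0.37 ± 0.17, not called) and at 86.5, 77.3 and 61.6 CPM against 29.5, 23.0 and 33.8 CPM in ICC283, a difference of 1.76 ± 0.24 (adjusted p = 0.007). Its drought libraries overlapped between the genotypes and its well-watered libraries did not. GRP1 was the named gene with a negative difference (-4.50 ± 0.73, adjusted p = 0.014), with at most 2.75 CPM in any library. The differences of ACS, UGT73C15 and GRP1 were kept without each of the 12 libraries in turn.

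NAC5 was at 119, 135 and 98.3 CPM in well-watered ICC283 and at 155, 151 and 106 CPM under drought, where its groups overlapped, and the difference was 1.36 ± 0.32 (adjusted p = 0.047). NAC47 fell in ICC283 from 53.5, 59.5 and 46.8 CPM to 14.1, 13.1 and 13.6 CPM and overlapped between groups in ICC8261, at 20.5, 38.5 and 24.1 CPM against 33.3, 44.5 and 19.1 CPM (difference 2.19 ± 0.40, adjusted p = 0.023). NAC51 stayed between 8.59 and 10.1 CPM in all 6 ICC8261 libraries and fell in ICC283, from 9.44, 13.7 and 7.25 CPM to 1.41, 3.37 and 4.22 CPM (difference 1.87 ± 0.43, adjusted p = 0.042). NAC5 was kept only without ICC283 well-watered library 3 or ICC8261 drought library 3 (adjusted p otherwise up to 0.12) and was not called in the libraries of agreed treatment (1.22, adjusted p = 0.058). Of the single libraries left out, NAC51 was kept only without ICC283 well-watered 3 or drought 3, the libraries of conflicting treatment in that genotype (adjusted p otherwise up to 0.11). It was also called in the libraries of agreed treatment (2.36, adjusted p = 0.014). NAC47 was lost without ICC283 well-watered library 2, ICC283 drought library 1 or 2, ICC8261 well-watered library 3 or ICC8261 drought library 1 (adjusted p up to 0.069).

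**Figure D4:**
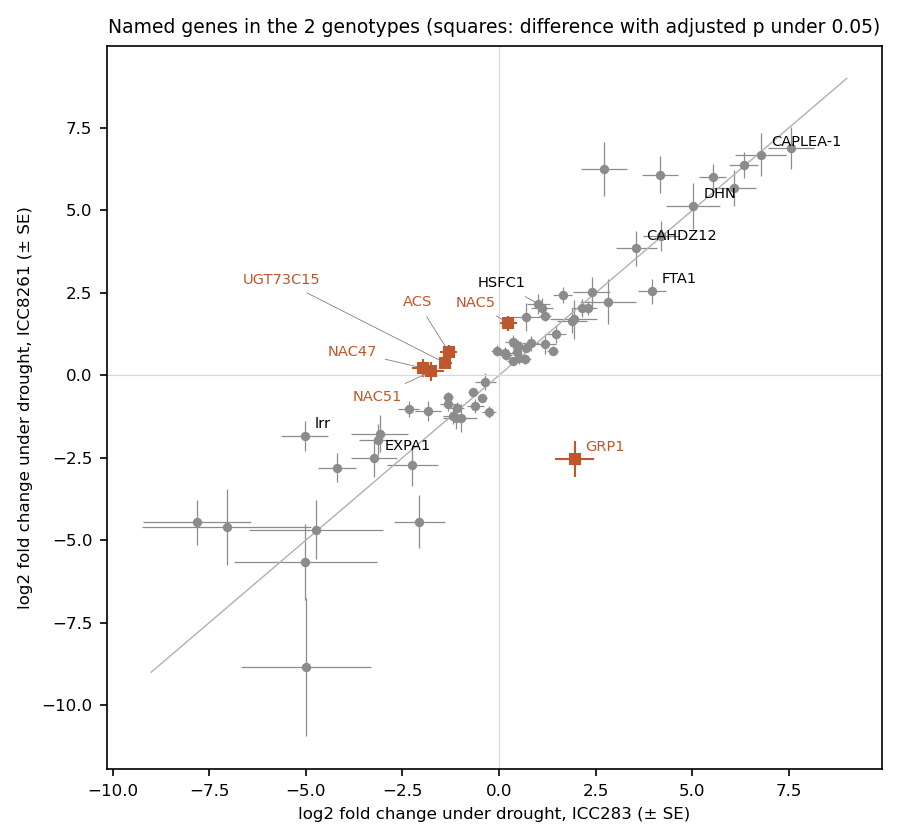
Log2 fold change under drought in ICC283 (x axis) and ICC8261 (y axis) for the 67 named genes, with SE as bars and the line of equal change in grey. Orange squares mark the 6 genes whose difference between genotypes has an adjusted p under 0.05; DHN and CAPLEA-1 lie near the line, and GRP1 lies at 1.96 in ICC283 and -2.54 in ICC8261.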

How the data were processed

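The labels assign 12 chickpea leaf RNA libraries to 2 genotypes and 2 treatments, sequenced as paired reads of 150 bases per the labels' protocols. The authors deposited a file of whole-number counts per library and tables of their comparisons. The submitters' processing notes name HTSeq, DESeq2, edgeR, Trimmomatic, Cufflinks 2.0.2 and TopHat2 2.1.1. Genome build and annotation: not given in the sources used here; coordinates are therefore left out. Per the file headers, the deposited DESeq2 tables hold log2 fold changes, p-values and a normalized signal per library, and edgeR tables hold log2 fold changes and p-values for listed genes. The authors' standard errors and Wald statistics, entered as scores per the file headers, were not used. Dividing each signal column by its smallest positive value gave whole reads for 100% of values (tolerance 0.02), and each column equalled exactly 1 count file at all genes compared.

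The main test on recovered reads used R 4.3.3 and edgeR 4.0.16 (TMM scaling, filterByExpr at its minimum count of 10 and minimum total of 15, 4 group means over all 12 libraries, robust glmQLFit, two-sided glmQLFTest, Benjamini-Hochberg adjustment over all genes, calls at 0.05). SE is the absolute log2 fold change over the square root of F, which is unreliable for changes and differences near 0. DESeq2 1.42.0 was an alternative. Intervals and floors cover counting error only. HTSeq summary lines were kept out.

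Members and lists were chosen with earlier results of these data known. Lists come from gene symbols, which 337 of the 27233 features have; 24445 features (89.8%) matched the table of Cicar.CDCFrontier_v2.0. Named genes needed separated libraries, an adjusted p under 0.05 and, in the higher group, a mean of 2 CPM or more: the 12 largest rises and falls with a symbol and the 6 without. Added were up to 3 called members per list and direction, every tested dehydrin, LEA and osmolyte gene, up to 4 symbols per sign of the genotype difference, and the 3 symbols most like DHN; for list members no level or separation was required. Groupings by protein and promoter sequence were not run.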

Additional observations from a re-analysis of the deposited data

Results flagged for a closer look

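The drought effect differed between the genotypes in 6 named genes, by the test of the difference itself (ICC8261 minus ICC283, log2 scale, edgeR's quasi-likelihood test with adjustment over 18591 genes). All of them but NAC5 were named for passing this test, so their number is no result. Over all genes 1.6% had a positive and 0.979% a negative difference. The difference was 2.19 for NAC47, 2.01 for ACS, 1.87 for NAC51, 1.76 for UGT73C15, 1.36 for NAC5 and -4.5 for GRP1. In the libraries of agreed treatment these were 1.82, 1.75, 2.36, 2.04, 1.22 and -5.49, and all but that of NAC5 (adjusted p = 0.058) had an adjusted p under 0.05. With the count-file labels they were 0.22, 0.43, 1.17, 0.93, 0.06 and -1.71 (adjusted p = 1.0 each). Groups held 3 libraries, too few for a test of outlying samples.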

How the results depend on the processing

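With the count-file labels 0 genes were called higher, 0 lower, 0 in the difference and 0 in the lists, by edgeR; 634 genes had an unadjusted p under 0.05 in that difference, and DESeq2 called 0 there (738 unadjusted). The signs of CAPLEA-1 (-0.29), GRP2 (-0.38), P5CS (-0.43), TOC1A (-0.13), ACS (-0.1), ARF1 (-0.09), CAMAPK5 (-0.06), NAC47 (-0.56), NAC51 (-0.01), CAGOLS1 (0.02) and UGT85H3 (0.25) turned with those labels. NAC47 was also at -0.25 in the libraries of agreed treatment, with ICC283 in the fit or not, and between -0.08 and 0.53 without each library in turn (-0.08 without drought library 2). Fitting the ICC8261 libraries alone gave 2581 higher and 2661 lower. The spread was then estimated from these libraries only, and why the counts rose was not tested. The difference had 2354 calls in the libraries of agreed treatment and 1291 by DESeq2; the cause was not tested. Leaving out each ICC8261 library in turn gave 824 to 1732 higher and 603 to 1856 lower. Calls of the difference numbered 55 to 2298 when each of the 12 libraries was left out. In the deviations from the group means, same-numbered libraries correlated at 0.215, 0.077 and -0.126, so the numbers were not taken to pair the samples; with a replicate block there were 1681 higher, 1832 lower and 465 in the difference. P5CS was called with the block (1.86, adjusted p = 0.01), and GRP2, ARF1 and CAMAPK5 were not (adjusted p = 0.061, 0.079 and 0.071), nor was the difference of NAC51 (1.91, adjusted p = 0.053). A fit of the ICC8261 libraries of agreed treatment alone, added after seeing the data, gave 1381 higher and 1115 lower; calls of CAHDZ12, NAC66, GRP2 (1.75, adjusted p = 0.06) and actin (-0.42, adjusted p = 0.064) ended there but not with ICC283 in the fit. DESeq2, RLE and upper-quartile scaling and no filter on low counts kept the main counts of higher and lower genes within 1.5 times. They turned no named gene, but some named calls ended. Without the filter 4 ended, among them GRP2 (adjusted p = 0.099) and PRR59A (adjusted p = 0.053). With upper-quartile scaling 1 ended, that of ARF1 (adjusted p = 0.057). Of 62 named calls, 36 were kept both without each library in turn and in the libraries of agreed treatment. At 10027015 to 11328707 reads per library, genes near 1 CPM rest on about 10 reads.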
